A study of Mus musculus with 2 samples.

Results

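The lower proximal cup (LPC) is the collar of epithelial progenitor cells at the base of the growing hair follicle, and this report describes droplets that carried its marker transcripts in the skin of newborn mice. The cells were chosen by measured values: a droplet was kept when it held at least 5 unique molecular identifiers (UMIs, counted transcript molecules) of Slc7a2, Npr3 and Mme together, no more UMIs of Sp5, Frem1 and Wnt7a together than of those 3 genes, and at least 2 UMIs of Lgr5. In all, 1085 of 16453 filtered droplets met this rule, and they are called LPC-like cells. They numbered 430 of 8661 droplets (4.97%, 95% exact binomial interval 4.52 to 5.44%) in the library labelled PADI4 WT and 655 of 7792 (8.41%, 7.80 to 9.04%) in the library labelled PADI4 cKO. The droplets were single-cell RNA sequencing libraries of tdTomato-positive epithelial cells from back skin at postnatal day 1, made with the 3′ Chromium chemistry. The epidermis was lifted off with dispase, so that the hair follicles left in the dermis were enriched, and cells were sorted for tdTomato with DAPI to exclude dead cells. Both groups carried the K14-Cre driver and the tdTomato reporter, and the cKO group also carried Padi4 fl/fl. K14-Cre acts in basal keratinocytes and their descendants, so the reporter marked epithelium and not dermis. Each genotype was 1 library, both from the same batch, and neither the number of animals per library nor the Padi4 alleles of the WT animals was given in the sources used here. A difference between the libraries therefore cannot be told apart from a difference between genotypes, and no test was possible. All intervals are 95% and cover counting error only.

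LPC cells connect the outer root sheath above to the germinative layer, or matrix, around the dermal papilla, the mesenchymal signalling centre of the follicle. Lgr5 is a receptor for R-spondins, which strengthen Wnt signalling, and it marks proliferating epithelium in the lower follicle. Hedgehog ligand from matrix cells is received by Ptch1, which is both the receptor and a target gene of the pathway. Edar is the receptor for ectodysplasin, needed for follicle formation. Npr3 is the clearance receptor for natriuretic peptides, Mme is the membrane peptidase neprilysin and Slc7a2 carries arginine and other cationic amino acids into cells.

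The libraries held 143938990 and 143945294 UMIs in all. Padi4, the targeted gene, gave 3 and 4 UMIs in the LPC-like cells of the WT and cKO libraries (0.274 and 0.244 CPM, UMIs scaled to the same total in each library), and 0.912 and 0.784 CPM in all other filtered droplets. The cKO library was thus not lower by more than counting error, and a 3′ count does not show whether the floxed exons were removed. By sex-linked transcripts the libraries were not alike: 238 LPC-like cells of the WT library carried Y-linked transcripts without Xist, 119 carried Xist alone and 64 both, while all 655 of the cKO library carried Xist without them. Among Xist cells without Y-linked transcripts alone, LPC-like cells were 5.17% and 8.45% of filtered droplets. Filtered droplets of the libraries shared 17 barcodes, none of them in LPC-like cells. LPC-like cells were deeper than other cells, with a median of 23928 UMIs against 13766 in the WT library and 22646 against 15169 in the cKO library, and a rule with a minimum of 5 UMIs favours deep cells. Scrublet called 31 (7.21%) and 46 (7.02%) of them doublets, against 3.90% and 3.97% of all filtered droplets, and doublets were kept.

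The rule set the levels of its own genes, which are given as a description. The median LPC-like cell held 7 Lgr5 UMIs (2 to 61) in the WT library and 9 (2 to 81) in the cKO library. The 3 genes Slc7a2, Npr3 and Mme together gave a median of 8 UMIs (5 to 37) and 9 (5 to 62). All 3 were seen in 155 cells (36.1%) and 256 cells (39.1%), so most LPC-like cells were selected on 1 or 2 of them. Just inside the limit, the 79 and 100 cells with exactly 5 such UMIs had 868 and 1015 CPM of Ptch1. Just outside it, the 84 and 160 otherwise matching cells with 4 UMIs had 640 and 879 CPM. Edar stood at 119 and 132 CPM inside and at 61.3 and 123 CPM outside, so cells on both sides of the limit carried both transcripts. At the other limit, the 51 and 51 cells with exactly 2 Lgr5 UMIs had 832 and 969 CPM of Ptch1 and 195 and 249 CPM of Edar. The 49 and 69 otherwise matching cells with 1 Lgr5 UMI had 854 and 860 CPM of Ptch1 and 322 and 330 CPM of Edar. Lgr5-positive cells were abundant: 3470 and 3579 filtered droplets had at least 2 Lgr5 UMIs, and LPC-like cells were 12.4% and 18.3% of these.

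Of the 6 marker genes given for the LPC, Ptch1 and Edar played no part in the rule. The windows of 250 bases before the annotated starts of these genes and of Npr3 are shown, because the sections that follow turn on Hedgehog and Wnt response genes. They are from RefSeq on GRCm38.p6 and all 3 lie on the minus strand: Edar at chr10:58675697-58675946, Ptch1 at chr13:63565736-63565985 and Npr3 at chr15:11907372-11907621. Capitals mark the only match in these windows to CTTTGA, the letters of a Tcf/Lef motif, searched on both strands.
Edar: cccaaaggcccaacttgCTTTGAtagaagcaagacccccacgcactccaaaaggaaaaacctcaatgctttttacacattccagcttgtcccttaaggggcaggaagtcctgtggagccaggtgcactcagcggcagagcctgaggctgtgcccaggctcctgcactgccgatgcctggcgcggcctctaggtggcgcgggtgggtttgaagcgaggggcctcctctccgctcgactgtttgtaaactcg
Ptch1: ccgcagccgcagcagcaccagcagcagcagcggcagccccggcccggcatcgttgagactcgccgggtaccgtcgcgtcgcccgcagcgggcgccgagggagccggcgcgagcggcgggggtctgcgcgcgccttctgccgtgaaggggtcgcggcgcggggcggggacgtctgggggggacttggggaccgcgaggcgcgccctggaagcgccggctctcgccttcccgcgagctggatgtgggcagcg
Npr3: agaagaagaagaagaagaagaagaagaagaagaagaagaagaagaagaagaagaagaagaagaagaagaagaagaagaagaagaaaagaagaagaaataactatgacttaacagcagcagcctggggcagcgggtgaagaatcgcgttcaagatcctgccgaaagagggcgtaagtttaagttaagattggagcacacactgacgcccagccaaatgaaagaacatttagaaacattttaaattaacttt
The match in Edar begins 233 bases before the start. Mme, not printed because it has 3 annotated windows, has a match in 1 of them, 125 bases before that start. The Ptch1 window is 78.4% G and C and holds no match to CTTTGA or to TGGGTGGTC, the letters of a GLI motif. It lies inside the span of the gene given below, so it precedes an internal start. The bases before the outer end of Ptch1 were not searched. Over all 32851 promoter windows of this length, 13.8% hold CTTTGA and 0.225% hold TGGGTGGTC. Promoters were found for 17 of the 25 genes that stood highest in the LPC-like cells. None of their 19 windows holds the GLI letters and 1 of them, that of Me1, holds CTTTGA. A match is a string of letters and not a shown binding site.

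The LPC-like cells were compared with all other filtered droplets of the same library, by the ratio of their summed CPM. Since a group picked by its transcripts is set against the rest, these values are descriptive. Of 13535 genes tested (at least 100 UMIs in each library), 90 (0.665%) were at least 2-fold higher in both libraries and 556 (4.11%) at least 2-fold lower. At smaller sizes, 34.6% of genes lay above and 42.3% below the other cells in both libraries, and the median log2 ratio over all genes was -0.03 and -0.02. Against only those other droplets with at least as many UMIs as the 5th percentile of LPC-like cells the counts were 94 and 392, and without called doublets they were 96 and 610.

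Ptch1 (chr13:63508328-63573598) reached 943 CPM in the LPC-like cells of the WT library against 415 CPM in the other cells, a log2 ratio of 1.18 (1.15 to 1.21). In the cKO library the levels were 959 and 475 CPM and the ratio 1.01 (0.99 to 1.04). Edar (chr10:58600789-58675654) stood at 168 against 83.2 CPM and at 186 against 98.4 CPM, ratios of 1.01 (0.94 to 1.08) and 0.92 (0.86 to 0.98). Both markers outside the rule were therefore about 2-fold higher in both libraries.

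Chst2, a sulfotransferase that modifies cell-surface glycans, had the highest ratio of the 25 named genes in the WT library, and in the cKO library Dscaml1 and Mtmr7 stood above it. It measured 121 CPM against 22.9 in the WT library and 92.3 against 22.7 in the cKO library, log2 ratios of 2.40 (2.31 to 2.50) and 2.02 (1.93 to 2.11). Thinned to 5000 UMIs per cell, Chst2 was seen in 43.8% and 33.7% of LPC-like cells and in 8.08% and 8.58% of other cells, at 1 depth for all cells. Edn1, the vasoactive peptide endothelin-1, was at 106 against 24.7 CPM and 96.8 against 28.6 CPM (2.11 and 1.76). Also among the 25 were St8sia2, which adds polysialic acid (2.11 and 1.80), Gxylt2, a xylosyltransferase (1.95 and 1.81), and St3gal5, which makes the ganglioside GM3 (28.5 against 9.39 CPM and 40.6 against 15.1 CPM). The proteases Adamts9 (337 against 88.7 CPM and 400 against 123 CPM) and Adamts1 (log2 ratios of 1.54 and 1.53), which cleave proteoglycans, stood beside their substrate versican, Vcan (180 against 66.1 CPM and 176 against 66.8 CPM). The collagens Col27a1 (2.02 and 1.58) and Col14a1 (391 against 134 CPM and 429 against 141 CPM) were among the 25 as well. These groupings were read from the 25 genes by what each is known to do, and no list of such genes was tested. The adhesion molecule Dscaml1 had ratios of 2.01 and 2.13 and the BMP-regulated transcription factor Smad9 1.76 and 1.57. The Cxcl12-scavenging receptor Ackr3 was at 88.0 against 28.7 CPM and 85.7 against 30.3 CPM, and the Wnt7 co-receptor Adgra2 at 50.9 against 14.5 CPM and 43.8 against 14.4 CPM. The remaining named genes (Mtmr7, Prss35, Abcc4, Slc25a48, Ntng1, Greb1l, Arhgdig, Fam13a, Ccbe1, Me1 and Khdrbs3) lay between 1.38 and 2.34 in the 2 libraries.

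**Figure D1:**
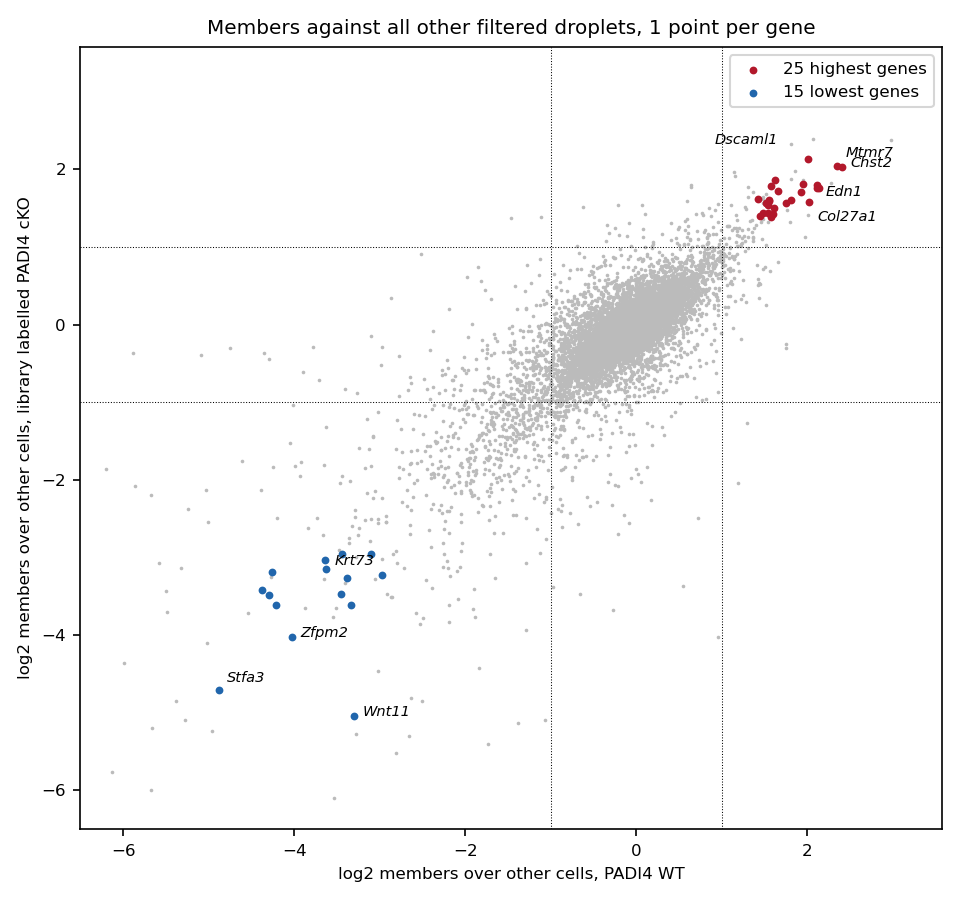
Each point is a gene, placed by the log2 ratio of its level in the LPC-like cells (members) over all other filtered droplets in the library labelled PADI4 WT (x axis) and PADI4 cKO (y axis), with dotted lines at 2-fold. The 25 genes named as highest, in red, sit between 1.38 and 2.40 in both libraries, and the 15 named as lowest, in blue, sit at -2.95 or lower.

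The 15 lowest genes included keratins of differentiated lineages. Krt73, an inner root sheath keratin, stood at 4.11 CPM against 51.1 in the WT library and 4.93 against 44.0 in the cKO library. Krt75, the companion layer keratin, was at 4.11 against 43.4 CPM and 3.65 against 35.3 CPM. The epithelial cystatin Stfa3 had ratios of -4.88 (-5.49 to -4.39) and -4.70 (-6.75 to -3.51). It rested on 29 and 4 UMIs, and Wnt11, at -3.30 and -5.04, rested on 9 and 4 UMIs. Zfpm2 (-4.03 and -4.02), Gpnmb (-4.30 and -3.49), S100a3 (-3.33 and -3.61) and Zfp750 (-3.44 and -2.96) were also among them.

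Mtmr7, a phosphoinositide phosphatase gene, was at 111 against 21.9 CPM and 116 against 28.1 CPM (2.34, 2.24 to 2.44, and 2.04, 1.96 to 2.12). It is the chromosomal neighbour of a gene of the rule: Mtmr7 (chr8:40551095-40634797) ends 227599 bases from Slc7a2 (chr8:40862396-40922308). Pdgfrl, 3904 bases beyond the other end of Slc7a2, had ratios of 2.01 and 1.41 on 83 and 89 UMIs, and Zdhhc2 had 0.85 and 1.16. These 3 were singled out after the values of the 12 genes tested within 500 kb of Slc7a2 were seen. Among the other cells, Mtmr7 was at 12.6 and 14.9 CPM where no Slc7a2 UMI was seen, at 33.1 and 37.6 CPM with 1 or 2 UMIs and at 93.5 and 102 CPM with 3 or more. Within LPC-like cells, the Spearman correlation of Mtmr7 and Slc7a2 levels across cells was 0.38 (430 cells) and 0.23 (655 cells), while that of Mtmr7 and Npr3 was -0.15 and -0.06. Slc7a2 and Npr3 themselves stood at -0.15 and -0.14. The rule set a minimum on the sum of these genes and Mme, which can by itself set them against each other. The values with Npr3 are therefore not independent of how the cells were chosen. Cells of 1 library share its processing and are not replicates, so these correlations are a description.

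Hedgehog pathway genes are given by role. Of 14 genes tested, 8 lay above the other cells in both libraries and 5 below, against 34.6% and 42.3% of all genes. Their median log2 ratio was 0.23, against a median of -0.02 over all genes. Only Ptch1 was past 2-fold in both. Targets were higher besides Ptch1: Hhip, which encodes a ligand trap, measured 12.7 against 6.26 CPM and 18.3 against 9.81 CPM. The effectors Gli1 (0.85, 0.73 to 0.96, and 0.64, 0.54 to 0.73) and Gli2 (0.84 and 0.80) were also higher, and the signal transducer Smo was near equal (0.13 and 0.12). The ligand gene Shh was lower, at 32.0 against 55.8 CPM and 31.2 against 67.1 CPM. The co-receptors Boc (-0.61 and -0.31), Gas1 (-0.65 and -0.68) and Cdon (-1.09 and -0.39) were lower as well. The named response genes thus lay above the other cells, and the ligand and the named co-receptors below them.

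Wnt pathway genes are given by role, against 34.6% of all genes higher and 42.3% lower in both libraries. Lgr5 was part of the rule, so its level is not set against theirs. Of 13 Wnt response genes and Tcf/Lef factors, 8 were lower and 5 higher in both libraries, with a median of -0.71. In this list 4 genes were 2-fold lower and none 2-fold higher. Lef1, a transcription factor of the pathway, was at 206 against 456 CPM and 214 against 481 CPM (-1.15, -1.21 to -1.09, and -1.17, -1.22 to -1.12). Its direction depended on the cells compared: most other droplets with at least 2 Lgr5 UMIs, grouped below, had less Lef1 (128 and 127 CPM). The feedback genes Axin2 (-0.69 and -0.88), Nkd2 (-2.20 and -3.14), Notum (-0.89 and -2.24) and Apcdd1 (-1.29 and -1.33) were lower. Tcf7 (0.40 and 0.44), Tcf7l1 (0.28 and 0.31) and Ccnd1, the cell cycle gene cyclin D1 (707 against 479 CPM and 778 against 508 CPM), were higher. Of 12 Wnt ligands, 10 were lower in both libraries and none higher, among them Wnt10a (-1.24 and -1.32), Wnt10b (-1.25 and -1.15) and Wnt5a (-0.91 and -1.45). Of 19 receptors, 7 were higher and 10 lower, Lgr6 (0.56 and 0.65) and Ror1 (0.47 and 0.62) being higher. The secreted inhibitor Sfrp1 was lower (-1.87 and -1.92).

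**Figure D2:**
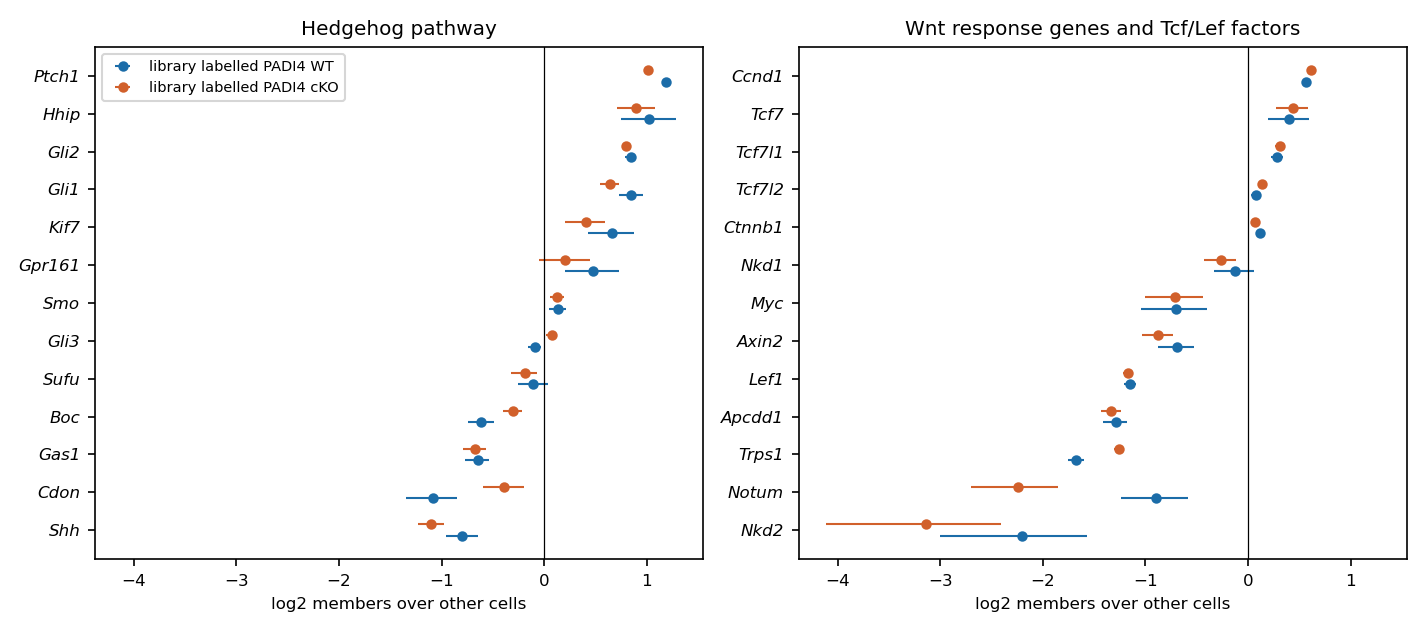
The log2 ratio of LPC-like cells (members) over all other filtered droplets (x axis) is drawn for genes of the Hedgehog list and of the Wnt response list, with a point per library and bars for the 95% counting interval. Ptch1, Hhip and the Gli effectors lie to the right of 0 and Shh to the left, while Lef1, Axin2, Apcdd1, Notum and Nkd2 lie to the left in both libraries.

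The other signalling lists are set beside all genes tested, of which 34.6% were higher and 42.3% lower in both libraries. The ectodysplasin, BMP and FGF counts lay near these shares, so they are no result about those lists. In the ectodysplasin list, 2 of 8 genes were higher and 4 lower in both libraries. The ligand gene Eda was lower (301 against 432 CPM and 304 against 502 CPM) and the adaptor Edaradd near equal (-0.03 and 0.02). Besides Edar, the gene higher in both was Cxcl10, a chemokine (0.84 and 1.16). Of 18 BMP genes, 6 were higher and 9 lower, with the target Msx1 (-1.90 and -2.02), the pseudoreceptor Bambi (-1.51 and -1.46) and the antagonist Fst (-1.84 and -1.43) lower. Notch genes were mostly lower, 8 of 11. Notch1 measured 39.7 against 153 CPM and 43.7 against 137 CPM, and Notch3 (-3.02 and -2.56) and its target Heyl (-2.11 and -2.17) were lower. Of 12 TGF-β genes, 7 were higher and 4 lower, with Ltbp1, which tethers latent TGF-β to matrix, at 349 against 180 CPM and 377 against 189 CPM. Of 22 axon guidance genes, 6 were higher and 14 lower: Sema3c was at 83.7 against 38.9 CPM and 103 against 35.3 CPM, while its relatives Sema3a (-1.32 and -1.39) and Sema3e (-1.46 and -1.23) were lower. Of 10 genes each, the FGF list had 4 higher and 4 lower and the EGF list 2 and 6.

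Genes that work with the selecting genes had no common direction, against 34.6% of all genes higher and 42.3% lower in both libraries. Of 5 natriuretic peptide genes tested, 1 was higher and 3 lower in both libraries. The peptide gene Nppc gave only 11 and 12 UMIs in LPC-like cells, the signalling receptors Npr1 and Npr2 gave 1 and 0 and 10 and 11 UMIs, and the higher gene was the cGMP-dependent kinase Prkg2 (10.4 against 5.27 CPM and 11.8 against 6.27 CPM). Of 9 genes of arginine transport and use, 3 were higher and 4 lower, and the second cationic amino acid transporter Slc7a1 was near equal (0.04 and 0.04). Of 7 peptidase genes, Ace was 2-fold higher (1.37 and 1.13, on 25 and 30 UMIs) and Dpp4 lower (-2.65 and -1.79).

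Among transcription factors of the follicle, Lhx2, a LIM homeobox factor of follicle progenitors, was at 692 against 306 CPM and 695 against 370 CPM (1.18, 1.14 to 1.21, and 0.91, 0.88 to 0.94). Foxi3 was also higher, at 5.84 against 1.52 CPM and 6.64 against 1.83 CPM. Neither was particular to the LPC-like cells. In droplets with Slc7a2, Npr3 and Mme but fewer than 2 Lgr5 UMIs, Lhx2 was at 714 and 754 CPM. Foxi3 was at 9.81 and 6.05 CPM there, on 35 and 28 UMIs. It was at 7.80 and 11.6 CPM in droplets with Sp5, Frem1 and Wnt7a, on 17 and 34 UMIs. Of 15 genes in the follicle list, 5 were higher and 9 lower, against 34.6% of all genes higher and 42.3% lower in both libraries. Of 18 factors of shaft and sheath differentiation, 4 were higher and 12 lower, 7 of them 2-fold, including Foxn1 (-3.18 and -2.52), Ovol1 (-1.77 and -1.86) and Msx1. The median of this list was -0.66, and 4.11% of all genes were 2-fold lower.

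Of 17 basement membrane genes, 9 were higher and 6 lower, against 34.6% of all genes higher and 42.3% lower in both libraries. The collagen IV chains Col4a1 (0.83 and 0.82) and Col4a2 (0.74 and 0.78), the laminin chains Lamb1 (0.69 and 0.65) and Lamc1 (0.70 and 0.66) and nephronectin, Npnt (118 against 63.4 CPM and 112 against 49.6 CPM), were higher. The laminin chain Lama3 (64.5 against 129 CPM and 68.8 against 133 CPM) and Col17a1 (-1.06 and -0.44), which encodes a hemidesmosome collagen, were lower. Of 16 cell-cell adhesion genes, 15 were lower in both libraries, with a median of -0.58. They included Nectin4 (-2.16 and -2.09), the desmosomal gene Pkp1 (-1.50 and -1.13) and the gap junction genes Gjb2 (-1.79 and -1.40) and Gjb6 (-2.21 and -1.50).

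Markers of other epithelial cells are given by list, against 34.6% of all genes higher and 42.3% lower in both libraries. Of 6 interfollicular epidermis markers 5 were lower and none higher, of 6 sebocyte markers 3 and none, and of 7 upper follicle markers 4 were lower and 2 higher. All 7 inner root sheath genes, all 6 hair shaft genes and all 4 companion layer genes tested were lower in both libraries, with medians of -2.31 and -2.50 for the first pair of lists. Of 10 outer root sheath markers, 7 were lower and 1 higher (median -0.22). Krt15 was at 319 against 837 CPM and 500 against 729 CPM, and Sox9 at 175 against 218 CPM and 170 against 201 CPM. Of 10 germinative layer markers, 7 were lower and 2 higher (median -0.65). The basal keratins had no common direction: Krt14 was at 880 against 1222 CPM in the WT library but 851 against 801 CPM in the cKO library. Summed fibroblast markers were at 53.8 and 54.6 CPM in the LPC-like cells, below the 88.4 and 70.3 CPM of the other cells, with Dpt at 0. The summed markers were 85.0 and 111 CPM for melanocytes, with Tyrp1 at 0, and 0.730 and 0.913 CPM for immune cells, with Ptprc, Tyrobp and Laptm5 at 0. Endothelial markers summed to 0.548 and 1.16 CPM with Cdh5 and Kdr at 0, and Merkel cell markers to 1.00 and 2.31 CPM with Atoh1 at 0.

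To place LPC-like cells among their nearest neighbours, the other filtered droplets were divided into 4 groups. They were 373 droplets with the same 3 genes but fewer than 2 Lgr5 UMIs, 228 with at least 5 UMIs of Sp5, Frem1 and Wnt7a and more of these than of the 3 genes, 5903 other droplets with at least 2 Lgr5 UMIs, and 8864 remaining. Ptch1 was highest in the LPC-like cells, at 943 CPM (924 to 961) and 959 CPM (944 to 974). It went down in order through the low-Lgr5 droplets (742 and 784 CPM), the Sp5, Frem1 and Wnt7a droplets (630 and 673 CPM), other Lgr5 droplets (536 and 617 CPM) and remaining droplets (304 and 332 CPM). Neighbours in this order were separated by more than their counting intervals in both libraries. Chst2 followed the same order, from 121 and 92.3 CPM down to 7.97 and 5.30 CPM, although the low-Lgr5 and the Sp5, Frem1 and Wnt7a droplets overlapped in their intervals. Edar had another order. It was highest in the Sp5, Frem1 and Wnt7a droplets (358 and 414 CPM) and the low-Lgr5 droplets (303 and 337 CPM), intermediate in LPC-like cells (168 and 186 CPM), and lowest in other Lgr5 droplets (43.9 and 54.6 CPM). Ligand Shh did likewise over those groups, at 258 and 326 CPM, 150 and 132 CPM, 32.0 and 31.2 CPM, and 11.2 and 12.1 CPM. In the remaining droplets Edar (90.6 and 99.1 CPM) was below the LPC-like cells, but Shh (76.0 and 92.4 CPM) was above them. Lef1 was highest in the remaining droplets (684.5 and 745.5 CPM), followed by the Sp5, Frem1 and Wnt7a droplets (604.5 and 657.5 CPM). It was at 206 and 214 CPM in LPC-like cells, above other Lgr5 droplets (128 and 127 CPM) and below the low-Lgr5 droplets (454 and 499 CPM). Krt15 ran the other way over LPC-like cells (319 and 500 CPM), low-Lgr5 droplets (164 and 140 CPM) and other Lgr5 droplets (1118 and 1208 CPM). In the Sp5, Frem1 and Wnt7a droplets it was at 246 and 254 CPM. In the remaining droplets Krt15 (692 and 426 CPM) was above the LPC-like cells in the WT library and below them in the cKO library. Lgr5, a gene of the rule, was at 421 and 479 CPM in LPC-like cells and at 587 and 602 CPM in other Lgr5 droplets. Mtmr7 did not separate LPC-like cells (111 and 116 CPM) from the low-Lgr5 droplets (118 and 127 CPM), whereas Edn1 did (106 and 96.8 CPM against 65.9 and 71.3 CPM).

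**Figure D3:**
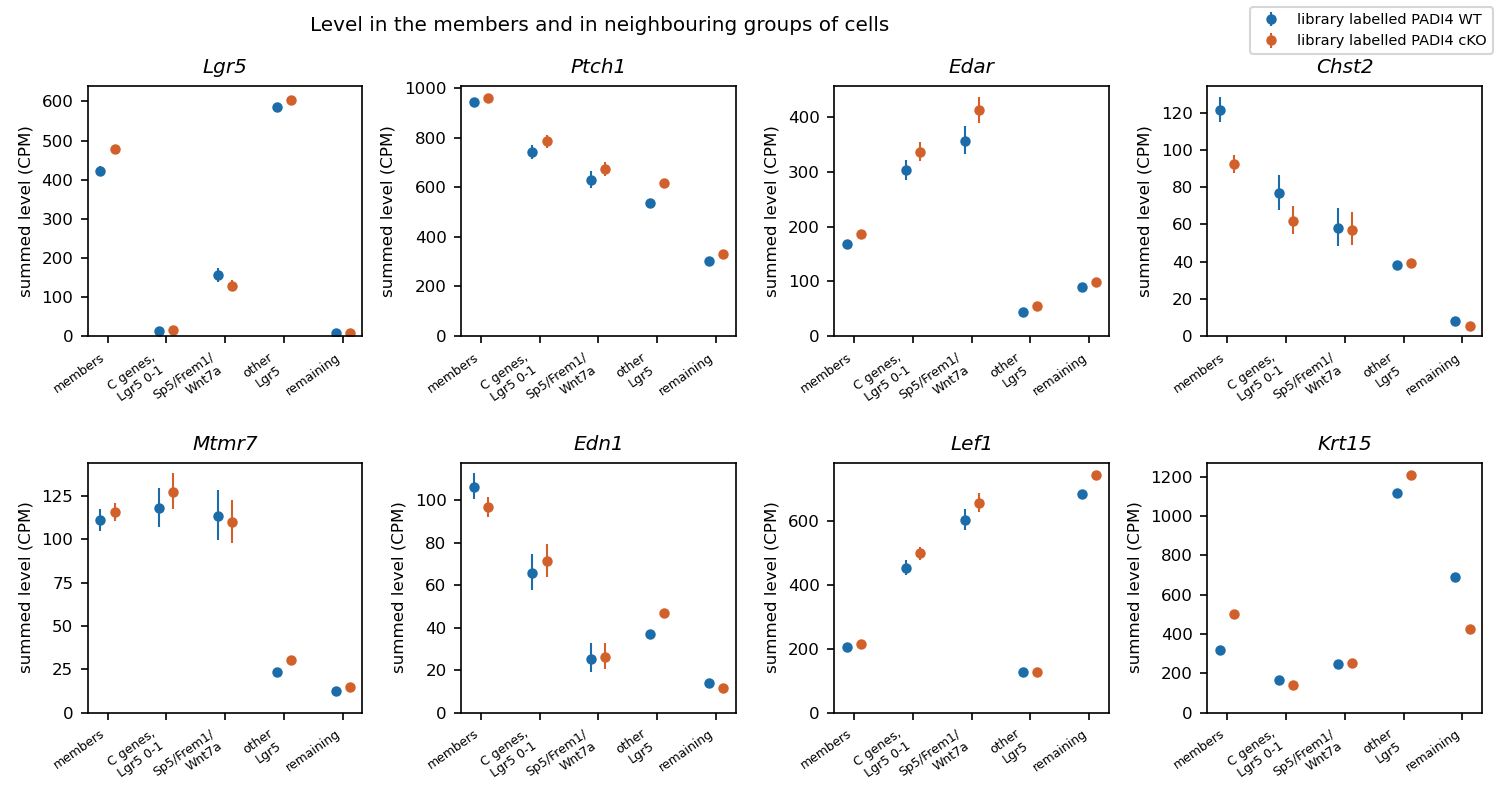
Summed level in CPM (y axis) of 8 genes in the LPC-like cells (members) and in 4 other groups of filtered droplets (x axis), with a point per library and bars for the 95% counting interval. Ptch1, Chst2 and Edn1 are highest in the LPC-like cells, Edar and Lef1 are higher in the droplets with fewer Lgr5 UMIs, and Krt15 is highest in the other Lgr5 droplets.

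Some of these genes also differed among the LPC-like cells by their Lgr5 UMIs. Lgr5 is a gene of the rule and also divides the groups above, so these classes are a description and no separate support. With both libraries together, 286 cells had 2 to 4 Lgr5 UMIs, 508 had 5 to 14 and 291 had 15 or more. From the first to the last of these classes Krt15 went from 271 to 395 to 593 CPM and Sox9 from 106 to 156 to 246 CPM. Lef1 went the other way, from 302 to 212 to 140 CPM, and Edar from 214 to 188 to 139 CPM. Ptch1 moved little, from 922 to 955 to 971 CPM. Classes by Lgr5 UMIs also differ in depth, which was not removed here. By the leading gene of the rule, 836 cells had most UMIs of Slc7a2, 129 of Mme and 46 of Npr3. Those led by Mme had 76.6 CPM of Shh, against 24.5 CPM where Slc7a2 led and 19.9 CPM where Npr3 led.

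A further division used 4 sets of 6 genes each, chosen after a clustering of the LPC-like cells was seen. A cell joined the subset whose genes took the largest share of its UMIs relative to the share in all LPC-like cells, if that was at least 1.5 times, and 484 cells (214 and 270, or 49.8% and 41.2% of the LPC-like cells) joined none. The subset genes are given as a description. The Tspear subset (57 and 89 cells, 13.3% and 13.6%) had the highest Shh, Bmp2 and Wnt10b, ligands of the matrix, at 120, 76.6 and 45.6 CPM, against 4.99, 7.26 and 4.27 CPM in cells of no subset. Its Edar was 335 CPM and its Mme 167 CPM, against 176 and 102 CPM in cells of no subset. The Robo2 subset (45 and 98 cells, 10.5% and 15.0%) leaned to outer root sheath genes, with Krt15 at 1208 CPM and Sox9 at 388 CPM against 337 and 163 CPM. Postn, an outer root sheath marker, was higher than in all other LPC-like cells by log2 3.74 and 3.19. The Slit3 subset (66 and 127 cells, 15.3% and 19.4%) had the highest Ptch1, 1097 CPM. It also led in the receptor tyrosine kinase gene Ret (39.7 against 5.72 CPM in cells of no subset), the netrin Ntn1 (96.9 against 16.3 CPM) and Col14a1 (688 against 458 CPM). Its Acta2 level rests largely on 1 cell in each library, with 26 of 33 UMIs in WT and 178 of 189 in cKO. The Krt28 subset (48 and 71 cells, 11.2% and 10.8%) carried the sheath and shaft keratins Krt25 and Krt35 at 85.1 and 170 CPM, against 2.72 and 2.36 CPM. Its Lef1 was 560 CPM against 134 CPM. This subset was the deepest, with a median of 31997 UMIs, and 31.9% of it was called doublets, against 18.9% of the Robo2 subset, 3.43% of the Tspear subset, 2.07% of the Slit3 subset and 0.620% of cells in no subset. The part of doublets in its keratin levels was not tested further. Cells of no subset had the highest levels of Npr3 (56.2 CPM), Vcan (246 CPM) and St8sia2 (61.7 CPM). Npr3 is a gene of the rule, so its level follows from how the cells were chosen. Ptch1 stayed between 765 and 1097 CPM in all 5 sets of cells.

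**Figure D4:**
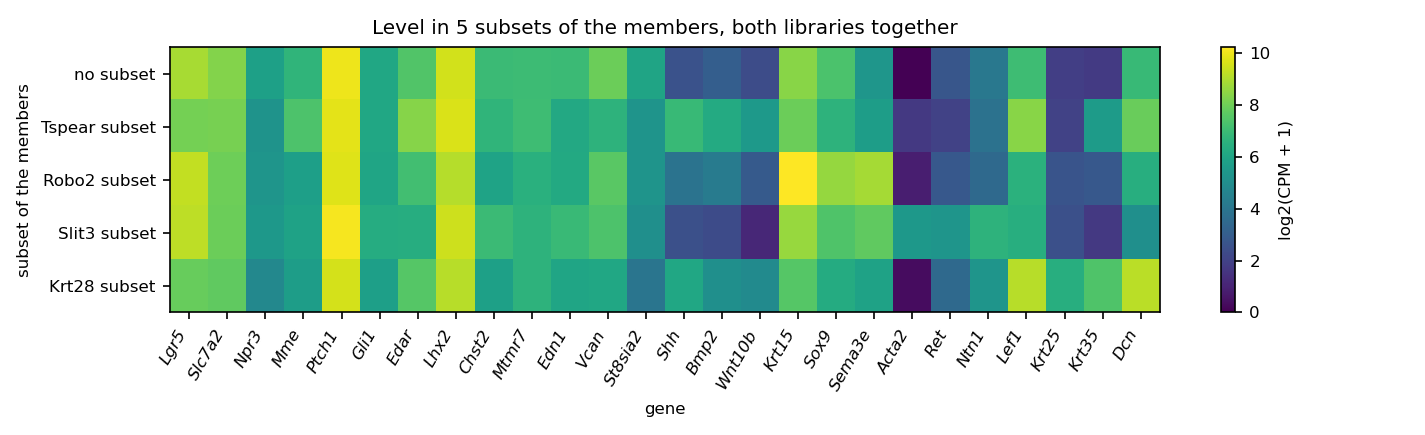
Colour gives log2(CPM + 1) of genes (x axis) in the 4 subsets and in the LPC-like cells of no subset (y axis), both libraries summed. It is to be read down each column because 3′ levels of different genes are not on one scale. Shh, Bmp2 and Wnt10b are brightest in the Tspear subset, Krt15, Sox9 and Sema3e in the Robo2 subset, Ret and Ntn1 in the Slit3 subset, and Krt25 and Krt35 in the Krt28 subset.

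Most cell cycle genes were somewhat higher in LPC-like cells than in other cells, against 34.6% of all genes higher in both libraries. Of the S phase genes, 41 of 42 lay above the other cells in both libraries (median log2 ratio 0.25), and of the G2M genes 46 of 52 (0.32). The low-Lgr5 droplets had like levels. Summed S phase genes were at 4381 and 4870 CPM in LPC-like cells and 4135 and 5036 CPM in low-Lgr5 droplets. Summed G2M genes were at 10710 and 8041 CPM and at 10150 and 8199 CPM. After thinning to 5000 UMIs, 427 and 653 LPC-like cells remained. In the WT library 36 (8.43%) were called G1, 154 (36.1%) S and 237 (55.5%, 50.7 to 60.3%) G2M. In the cKO library 91 (13.9%) were called G1, 324 (49.6%) S and 238 (36.4%, 32.7 to 40.3%) G2M. In the other cells G1 calls made up 38.5% and 37.2% and G2M calls 34.8% and 29.8%. Phase calls compare each cell with gene sets and are no count of dividing cells, and the part of free RNA in them was not tested. Of 20 ribosome biogenesis genes, 16 were higher in both libraries and none lower (median 0.18), and of 20 immediate early genes 15 were lower and none higher (median -0.43). Ribosome biogenesis genes summed to 4996 and 4977 CPM in LPC-like cells and to 5234 and 5486 CPM in low-Lgr5 droplets.

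The last comparison set the LPC-like cells of the library labelled PADI4 cKO over those of the library labelled PADI4 WT. Of 10805 genes tested (at least 100 UMIs in the LPC-like cells of both libraries together), 274 (2.54%) lay above 0.5 on the log2 scale and 195 (1.8%) below -0.5, and of these 469, 73 were past 0.5 in the same direction in the other cells. These counts depend on the processing: they were 532 and 269 with Xist cells alone, 450 and 355 with a minimum of 50 UMIs, 76 and 59 with 500, and 443 and 326 after subtraction of free RNA. All 52 G2M genes were lower in the cKO library, 15 of them by more than 0.5, with a median of -0.40 against -0.10 in the other cells. The lower level was not particular to LPC-like cells. Summed G2M genes were at 10150 and 8199 CPM in the low-Lgr5 droplets of the WT and cKO libraries. They were at 8308 and 7050 CPM in the Sp5, Frem1 and Wnt7a droplets and at 7550 and 5963 CPM in other Lgr5 droplets. Only the remaining droplets were not lower (8074 and 8376 CPM). Ube2c, a ubiquitin-conjugating enzyme of mitosis, went from 403 to 252 CPM (-0.68, -0.74 to -0.62), against -0.14 in the other cells. Cyclin Ccnb2 went from 137 to 81.1 CPM (-0.75), and Cenpf (-0.67) and the proliferation marker Mki67 (-0.57) were also lower. None of the 42 S phase genes was past 0.5, and their median was 0.13 against 0.14 in the other cells. The summed G2M list was 10710 CPM in the WT library and 8041 CPM in the cKO library (-0.41), and -0.29 when only Xist cells without Y-linked transcripts were used. G2M calls (as counted) were 51.3% in those 119 WT cells against 35.6% in the cKO library. How far the mixed sexes of the WT library bear on this was not tested further.

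Immediate early genes stood on the other side. Of 17 tested, 11 were above 0.5 and none below -0.5, against 2.54% and 1.8% of all genes tested. Their median was 0.56, against 0.11 in the other cells. Fos, a transcription factor induced within minutes of a stimulus, was at 111 CPM in the WT library and 211 CPM in the cKO library (0.92, 0.83 to 1.02, against 0.43 in the other cells). Dusp1, a phosphatase of the MAP kinases, was at 11.4 and 24.5 CPM (1.10, 0.81 to 1.40, against 0.11), and Klf4 (0.73), Zfp36 (0.70), Btg2 (0.69) and Egr1 (0.65) were also higher. The summed list differed by 0.46 in the LPC-like cells, by 0.46 with Xist cells alone and by 0.23 in the other cells. Every neighbouring group was also higher in the cKO library. The list was at 2093 and 2600 CPM in low-Lgr5 droplets and at 2271 and 2815 CPM in the Sp5, Frem1 and Wnt7a droplets. Other Lgr5 droplets had 2598 and 3192 CPM and remaining droplets 2694 and 3036 CPM.

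**Figure D5:**
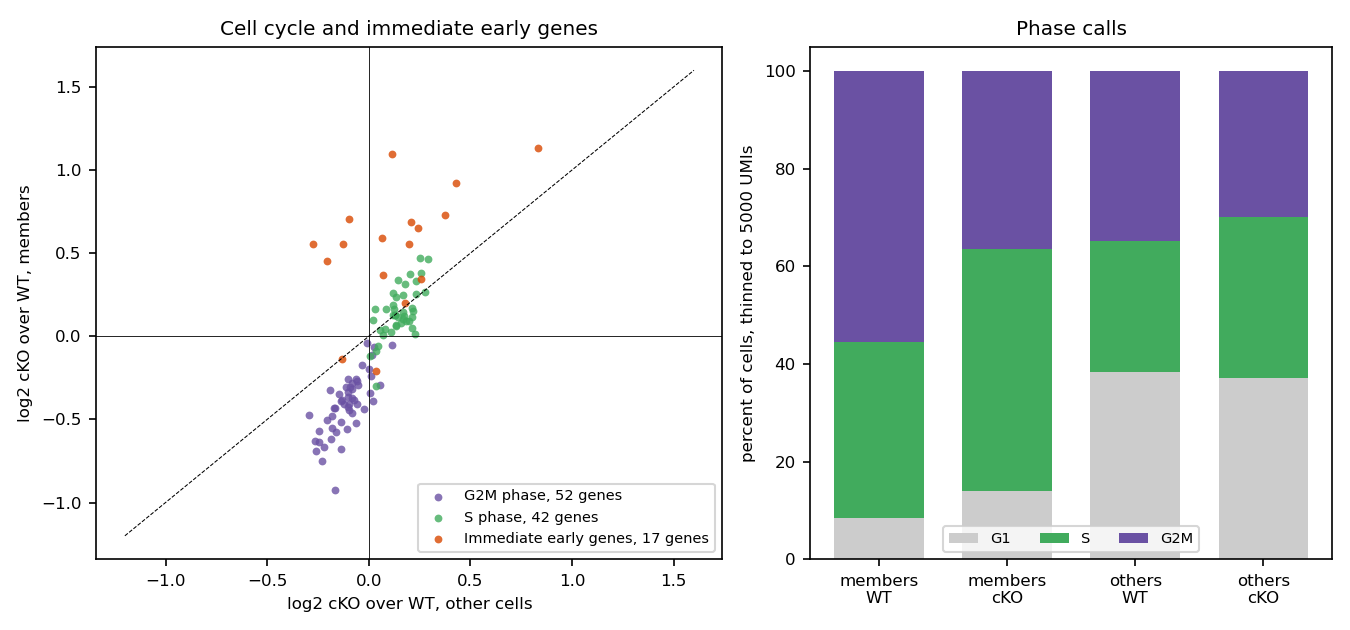
On the left, the log2 ratio of the cKO over the WT library in the LPC-like cells (members, y axis) is set against that in all other filtered droplets (x axis) for the tested genes of 3 lists, with the dashed line marking equal ratios. On the right, bars give the percent of cells called G1, S or G2M after thinning to 5000 UMIs, with G2M at 55.5% and 36.4% of LPC-like cells and 34.8% and 29.8% of other cells in the WT and cKO libraries.

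The marker genes outside the rule differed by 0.02 (Ptch1, -0.01 to 0.06) and 0.15 (Edar, 0.06 to 0.23) between the libraries, and Lef1 by 0.06 (-0.02 to 0.13). Chst2 was lower in the cKO library (-0.40, -0.50 to -0.29, against -0.01 in the other cells) and Krt15 higher (0.65, 0.59 to 0.71, against -0.20). The largest ratios named by rule were of other kinds. Gm10260 (3.70), Gm21887 (2.38), Hmga1b (2.09) and Gm8797 (-2.78) had like ratios in the other cells, of 3.55, 1.95, 2.37 and -2.82. Hmga1b is a near-identical copy of Hmga1, which was lower in both LPC-like and other cells (-0.69 and -0.70), so reads split between such copies are uncertain. Xist (1.68), Tsix (1.84) and the Y-linked genes Uty, Eif2s3y and Ddx3y followed the sexes of the cells. Of the rest, all in the 10 highest or 10 lowest, Plcxd3 was at 5.20 and 15.6 CPM (1.58, against 0.58 in the other cells) and Ptprt at 12.8 and 31.2 CPM (1.29, against 0.41). Odc1, the first enzyme of polyamine synthesis from ornithine, was at 93.3 and 42.4 CPM (-1.14, against -0.16), and Soat1 (-1.91), Scd1 (-1.26), Krt79 (-1.23) and Cers4 (-1.03) were lower. Few cells held much of some of these: in the WT library 3 cells held 155 of 196 UMIs of Soat1, 161 of 269 of Scd1 and 334 of 648 of Krt79, against 132 of 472 of Cers4 and 188 of 1023 of Odc1. Sebocyte markers, a list that holds Scd1 and Mgst1, moved with them. They summed to 124 CPM in the LPC-like cells of the WT library and 60.04 CPM in the cKO library (-1.04), and to 190 and 43.5 CPM in cells of no subset, but with Xist cells alone the list was at 50.4 and 60.04 CPM (0.25). The part of sebaceous transcripts in these differences was not tested. Acta2 (1.92) came mostly from 1 cell, which held 178 of its 189 UMIs in the cKO library. Mgst1 (-2.23) came mostly from 3 cells with 372 of 460 UMIs in the WT library, and it turned to 1.57 with Xist cells alone.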

How the data were processed

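In all, 2 libraries of tdTomato-positive epithelial cells from mouse back skin at postnatal day 1 were analysed, 1 per genotype. The authors aligned the reads with Cell Ranger 7.1.0 to mm10, per the labels and the submitters' processing notes, and deposited UMI counts per gene and barcode for all droplets, as raw matrices of 32285 genes. The annotation release and whether intronic reads were counted are not given in the sources used here. The study's removal of background RNA with CellBender and its correction for cell cycle phase with Harmony were not run, so free RNA remains in the counts.

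Droplets with 2000 to 60000 UMIs, 1000 to 8000 genes and at most 20% mitochondrial UMIs were kept. LPC-like cells, neighbouring groups and gene lists were defined with earlier results of these data known. UMIs were summed per library and group and scaled to CPM, and log2 ratios carry a pseudocount of 0.5 UMIs. Shares have exact binomial, levels exact Poisson and ratios exact conditional binomial intervals (95%). With 1 library per genotype no test was made. The ratio and thinning steps were tested on simulated data. Doublets were called with Scrublet in Scanpy 1.11.5 and kept. Its automatic threshold in the WT library (0.619) gave 1 call, so the 0.194 of the cKO library was used for both. Empty droplets were those with fewer than 100 UMIs. Cells were given cell cycle phases with Scanpy's gene scores after thinning to 5000 UMIs.

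Named genes were those of the lists and the 25 highest and 15 lowest in LPC-like cells over other cells in both libraries. The 10 highest and 10 lowest between libraries were also named. The 25 highest and those between libraries had at least 200 UMIs in LPC-like cells. The 15 lowest had at least 200 UMIs expected there at the level of the other cells. Genes named for the subsets, for the groups of droplets and beside Slc7a2 were otherwise chosen after their values were seen. Python 3.11.15, NumPy 2.4.6, pandas 2.3.3, SciPy 1.17.1 and Matplotlib 3.10.9 were used. Some genes that met these rules are not reported here. Alternatives changed the limits of the rule, the depth, doublets, free RNA and the cells used.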

Additional observations from a re-analysis of the deposited data

How the results depend on the processing

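No paired analysis was possible because each genotype had 1 library and no result came from a test. The share of LPC-like cells depended on the limits: in the WT and cKO libraries it was 8.13% and 13.5% with at least 3 UMIs of Slc7a2, Npr3 and Mme, 2.79% and 5.02% with at least 8, 5.53% and 9.29% with 1 Lgr5 UMI, 4.38% and 7.75% with 3, and 2.17% and 3.33% after thinning every droplet to 10000 UMIs. It was higher in the cKO library each time, by 1.53-fold to 1.80-fold. With at least 500 UMIs per gene, 53 genes were 2-fold higher and 294 lower in the LPC-like cells, and with the cells of no subset alone 889 were lower. Between the libraries, the genes above 0.5 and below -0.5 numbered 450 and 355 with at least 50 UMIs, 76 and 59 with at least 500, and 443 and 326 after subtracting free RNA (at most 15.1% and 17.5% of UMIs). With Xist cells alone 532 were above and 269 below. The ratio of Lef1 in LPC-like over low-Lgr5 cells was -1.36 and -1.33 without doublets. With Xist cells alone, S calls in the WT library were 42.9%, the summed G2M list differed by -0.29 and the S list by 0.043. Mgst1 turned to 1.57, and the summed sebocyte markers from -1.04 to 0.25. Of the values recomputed here, no other changed direction: 56 of the values of main comparisons and 340 of those of named genes and lists stayed within their limits, and 25 and 94 moved. Alternatives that used the cells of no subset, the LPC-like cells without the Krt28 subset and the neighbouring groups without doublets were chosen after seeing the data. Depth limits Padi4, Nppc, Npr1 and Npr2, which had at most 12 UMIs in a library.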
